A study of Mus musculus with 12 samples.

Results

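The comparison described here set the hairpins carried by UHRF1-GFP negative cells, sorted after 7 days in 2i, against those of unsorted cells kept in Serum/LIF to the same day. It held 3 libraries of each group, 6 of the 12 in the series, and was made over every short hairpin RNA (shRNA) with at least 0.5 counts per 1 M counts (CPM) in at least 3 of these 6 libraries, which left 2981 of the 3243 hairpins in the count table. All cells were of the strain E14 UHRF1-GFP, mouse embryonic stem cells (mESCs) with a transgene that fuses UHRF1 to GFP, and all carried the TRC lentiviral library of hairpins against mouse kinases and related genes, selected with puromycin. The GFP- cells (2i GFP-) had been moved to serum-free N2B27 medium with LIF, the MEK inhibitor PD0325901 and the GSK3 inhibitor CHIR99021, and had lost the GFP signal at sorting. The day 7 cells (Serum/LIF day 7) had stayed in medium with serum and LIF and were not sorted, so the change of medium and the sorting cannot be told apart here. The series also held 3 libraries each of Serum/LIF day 0 and of 2i GFP+ cells, which kept the signal in 2i; they were used only for levels given beside the results. The methods name triplicate cultures grown after the selection and do not name separate infections, so differences between infections may lie outside what the p-values measure.

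In serum and LIF, mESCs are held in a mixed state between naïve and primed pluripotency, in part because FGF4 that they secrete drives the RAF-MEK-ERK cascade. Blocking MEK and GSK3 together brings them to the naïve ground state, in which the maintenance of DNA methylation is weakened and UHRF1, the protein that brings DNMT1 to hemimethylated DNA, is lost. In a pooled screen each cell carries mostly a single integrated hairpin, and the abundance of that hairpin in genomic DNA follows how often its carriers survived, divided and passed the sort. A hairpin that is more abundant in GFP- cells than at day 7 marks carriers that were relatively frequent after the passage to 2i, and one that is less abundant marks carriers that were relatively rare. Not every hairpin silences its gene, and several hairpins were designed against each one.

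The sequences of the hairpins were found for 4 genes, and those of Csnk2b and Sephs2 are shown because 1 hairpin of each was more abundant in GFP- cells (below, by its number in the table). Csnk2b encodes the regulatory subunit of casein kinase 2 and Sephs2 a selenophosphate synthetase, which supplies selenium for selenoproteins. The antisense strand of each clone is given 5′ to 3′, with bases 2 to 8, the seed, in capitals.
Csnk2b clone 1: tTTCCAACatttgtgcgatgc
Csnk2b clone 2: aAGAATTCattaccacggagc
Csnk2b clone 3: tTCCAGGTctaagatcatgtc
Csnk2b clone 4: aTGGATCTtgaaaccatagag
Csnk2b clone 5: aTGCACCAtgaagagcatgtg
Sephs2 clone 1: aATAGCCTcctcttgctttgg
Sephs2 clone 2: tAGAACTTcaataacgcgagg
Sephs2 clone 3: tATTGGCAgattatgtatgac
Sephs2 clone 4: aGAACTTCaataacgcgaggc
Sephs2 clone 5: tAAAGGTTtggttaataccag
Each is 21 bases long. Clones 2 and 4 of Sephs2 share 20 bases, shifted by a single position, so that they address the same site with different seeds. The table gives 5 hairpins for either gene, but nothing ties its numbers to the order of the clones, so a value below belongs to one of the 5 sequences of its gene without saying which.

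Total counts were 2642014 to 3302331 in the GFP- libraries and 4444780 to 5466825 in the day 7 libraries. Fewer hairpins were detected in GFP- cells: 2782, 2785 and 2856 had at least 1 count, against 3053, 2989 and 3015 at day 7, a difference of -211 hairpins that stood at -210.0 after thinning every library to 2642014 counts (exact permutation test, two-sided, p = 0.1, n = 3 each, the smallest p this design allows). The 100 most abundant hairpins held 25.7% ± 0.366 of the counts in GFP- cells and 24.0% ± 0.169 at day 7 (SD, n = 3 each; exact permutation test, two-sided, p = 0.1), so that the libraries did not overlap in either measure. GFP- cultures also differed more among themselves, with a common biological coefficient of variation of 0.716, against 0.371 at day 7. Rank correlations of the hairpins were 0.924 to 0.9495 within GFP-, the lower values being those of replicate B, and 0.968 to 0.973 within day 7.

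Of the 2981 hairpins, 124 rose in GFP- cells, 4.16% of those tested, and 144 fell, 4.83% (edgeR's quasi-likelihood test; a hairpin passed where its Benjamini-Hochberg adjusted p was under 0.05 and its log2 fold change over 1 or under -1). Together these were 268 hairpins, or 8.99%, against 231 of the 727 genes tested. In all 268 the 3 GFP- values lay wholly above or wholly below the 3 day 7 values, which was true of 1121 of the tested hairpins, 37.6%. Over all tested hairpins the median log2 fold change, after scaling, was -0.05, with quartiles of -0.57 and 0.45. The hairpins that rose had a median log2 fold change of 1.40, or 2.64-fold, and held 7.80% ± 0.277 of the counts in GFP- cells and 3.16% ± 0.0222 at day 7. The hairpins that fell held 1.54% ± 0.0784 of the counts in GFP- cells and 4.37% ± 0.116 at day 7 (SD, n = 3 each). Ranked by their level at day 0 and cut into 3 equal parts, 19 rose and 59 fell among the least abundant hairpins, 53 rose and 38 fell in the middle part and 52 rose and 47 fell among the most abundant. The counts depended on the libraries fitted: leaving out 1 day 7 library left 80 to 88 hairpins higher and 54 to 57 lower, leaving out GFP- replicate B gave 143 higher and 249 lower, and fitting all 12 libraries together gave 13 and 6. Called in every one of 20 alternative analyses were 10 hairpins that rose, among them those against Stk19, Axl, Bmp2k, Csnk2b, Pdgfrb, Lamtor3, Ikbkg, Peak1 and Pik3c2a, and 5 that fell, against Trib2, Nek4, Ccnh, Araf and Hus1. That against Hus1 was under 0.5 CPM in each GFP- library, so in the main analysis it was tested only through day 7 and was bound to be lower.

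The 12 hairpins with the smallest p among those that rose targeted 12 different genes, with log2 fold changes from 1.04 to 3.35. The first was hairpin 131 against Ern2, an endoplasmic reticulum sensor of unfolded proteins related to IRE1. It had 2503, 2721 and 2389 CPM in GFP- cells, against 776, 766 and 768 CPM at day 7, a log2 fold change of 1.72 ± 0.09 (SE; adjusted p = 2.63e-05). The 3 values of each group lay close together and far from the other group. Hairpin 1253 against Stk19, a nuclear protein, had 1590.1, 1077 and 1517 CPM in GFP- cells, against 198, 168 and 135 CPM at day 7, with a log2 fold change of 3.06 ± 0.20 (adjusted p = 8.97e-05), and GFP- replicate B was its lowest GFP- value. Hairpin 3551 against Cpt1b, the muscle form of the enzyme that lets fatty acids enter mitochondria, had 693, 531 and 754 CPM in GFP- cells, against 77.6, 41.7 and 75.1 CPM at day 7 (log2 fold change 3.35 ± 0.28, adjusted p = 0.000188). It showed the highest fold among the 12. Hairpin 1833 against Pi4k2b, a phosphatidylinositol 4-kinase of membranes, had 1256, 1109 and 1212 CPM in GFP- cells, against 375, 308 and 341 CPM at day 7 (log2 fold change 1.80). Hairpin 2579 against Bmp2k, a kinase induced by BMP2, had 952, 952 and 1016 CPM in GFP- cells, against 331, 354 and 357 CPM at day 7 (log2 fold change 1.48), with 2 GFP- values that were nearly equal.

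Hairpin 835 against Axl, a receptor tyrosine kinase for GAS6, had 4769.6, 4407 and 4982 CPM in GFP- cells, against 2346, 2129.6 and 1983 CPM at day 7 (log2 fold change 1.13 ± 0.08, adjusted p = 0.00011). Hairpin 2691 against Scyl2, a pseudokinase of clathrin-coated vesicles, had 4030.1, 3727 and 4363 CPM in GFP- cells, against 2050.3, 2034 and 1819.7 CPM at day 7, and hairpin 975 against Ntrk3, the receptor of neurotrophin-3, had 3832, 3638 and 4075 CPM in GFP- cells, against 1915, 1666 and 1996 CPM at day 7. For these 3 hairpins the groups were about 2-fold apart and none of the libraries crossed over. Hairpin 2087 against Stk24, a kinase of the STE20 family, had 1636, 1710.2 and 1979.7 CPM in GFP- cells, against 639.6, 647 and 762 CPM at day 7. Hairpin 2881 against Ephb2, a receptor of ephrin-B ligands, had 1204, 1227 and 1341 CPM in GFP- cells, against 442, 498 and 552 CPM at day 7, and hairpin 3203 against Zmynd8, a reader of histone marks listed under its older symbol PRKCBP1, had 1186, 1264 and 1239.8 CPM in GFP- cells, against 601, 572 and 542 CPM at day 7. Their log2 fold changes were 1.38, 1.34 and 1.11. Hairpin 1932 against Csnk2b, one of the 5 sequences shown above, had 1111, 1048 and 1033 CPM in GFP- cells, against 451, 419.6 and 389.9 CPM at day 7 (log2 fold change 1.34 ± 0.12, adjusted p = 0.000204).

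The hairpins that fell were led by hairpin 1463 against Trib2, a Tribbles pseudokinase that brings proteins to the COP1 ubiquitin ligase. It had 275, 241 and 248 CPM in GFP- cells, against 1168, 1169 and 1158 CPM at day 7, a log2 fold change of -2.19 ± 0.12 (adjusted p = 2.65e-05), and the day 7 libraries agreed to within a few percent. Hairpin 2379 against Nek4, a NIMA-related kinase, had 672, 845 and 749 CPM in GFP- cells, against 2387, 2542 and 2065 CPM at day 7 (log2 fold change -1.63), and hairpin 1288 against Riok3, an atypical kinase of ribosome assembly, had 662, 554 and 638 CPM in GFP- cells, against 1844, 1544 and 1902 CPM at day 7 (log2 fold change -1.51). Hairpin 3000 against Ccnh, cyclin H of the CDK-activating kinase, showed the strongest fall of the 12, with 99.2, 102 and 89.8 CPM in GFP- cells, against 488, 431 and 571 CPM at day 7 (log2 fold change -2.36 ± 0.20, adjusted p = 0.000204). Hairpin 318 against Araf, a RAF kinase upstream of MEK, had 278, 350.1 and 279 CPM in GFP- cells, against 923, 1049.6 and 909 CPM at day 7 (log2 fold change -1.67). In each of these 5 the highest GFP- value stayed below the lowest day 7 value by more than 2-fold.

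Hairpin 1715 against Ckb, the brain creatine kinase, had 566, 519.9 and 492 CPM in GFP- cells, against 1252, 1269 and 1184 CPM at day 7, and hairpin 1767 against Shpk, which phosphorylates sedoheptulose and is listed as CARKL, had 184, 196 and 243 CPM in GFP- cells, against 667, 694 and 506 CPM at day 7. Hairpin 2241 against Hkdc1, a protein related to hexokinases, had 411, 364 and 366 CPM in GFP- cells, against 726, 782 and 847 CPM at day 7. Their log2 fold changes were -1.23, -1.58 and -1.05. Hairpin 251 against Ilk, a pseudokinase that links integrins to actin, had 815, 819 and 668 CPM in GFP- cells, against 1897, 1908 and 1652 CPM at day 7. Hairpin 1754 against Prkar1b, a regulatory subunit of protein kinase A, had 348, 351 and 411 CPM in GFP- cells, against 1087, 853 and 864 CPM at day 7, and hairpin 3144 against Aff1, a scaffold of the super elongation complex, had 291, 386 and 353 CPM in GFP- cells, against 739, 866 and 766 CPM at day 7. The log2 fold changes of these 3 were -1.24, -1.34 and -1.20, and over all 12 hairpins they ran from -2.36 to -1.05.

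Levels at the start of the screen and in the cells that kept UHRF1-GFP differed widely between these hairpins. They are given as means on a scale set over all 12 libraries (SD, n = 3) and were not tested. Csnk2b hairpin 1932 stood at 2368 ± 278 CPM at day 0 and 10100.0 ± 834 CPM in GFP+ cells, and Stk19 hairpin 1253 at 295 ± 76.1 CPM at day 0 and 6761 ± 3345 CPM in GFP+ cells. Pi4k2b hairpin 1833, at 361 ± 12.1 CPM at day 0 and 6262 ± 7252 CPM in GFP+ cells, and Axl hairpin 835, at 2225 ± 155 CPM at day 0 and 9420.5 ± 3462 CPM in GFP+ cells, were likewise high in the GFP+ fraction. Cpt1b hairpin 3551, in contrast, stood at 133 ± 86.1 CPM at day 0 and 19.5 ± 23.2 CPM in GFP+ cells, and Ern2 hairpin 131 at 1846 ± 263 CPM at day 0 and 378 ± 495 CPM in GFP+ cells. Among the hairpins that fell, Trib2 hairpin 1463 stood at 349 ± 27.9 CPM at day 0 and 603 ± 377 CPM in GFP+ cells and Nek4 hairpin 2379 at 1706 ± 221 CPM at day 0 and 3428 ± 935 CPM in GFP+ cells. A rise or fall is given against day 7, so a change in Serum/LIF since day 0 enters it. On the same scale, Trib2 hairpin 1463 was at 1037 ± 3.48 CPM at day 7 and 230 ± 17.1 CPM in GFP- cells. For Nek4 hairpin 2379 these levels were 2076 ± 211 and 682 ± 78.3 CPM. Csnk2b hairpin 1932, which rose, was at 374 ± 25.3 CPM at day 7 and 961 ± 43.6 CPM in GFP- cells, both below its day 0 level. Carriers frequent in the GFP- fraction were thus abundant in the GFP+ fraction for some hairpins and nearly missing from it for others. The median GFP+ level was 325 CPM for the 124 hairpins that rose and 5.31 CPM for the 144 that fell. No count in any GFP+ library was found for 65 (45.1%) of those that fell, against 827 (27.7%) of all 2981. Among the 86 that fell with more than 3 counts in GFP- cells, however, this held for 18 (20.9%).

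A set of hairpins was missing from GFP- cells. At 0 counts in all 3 GFP- libraries were 48 tested hairpins, and 36 of them passed the test, while 0 tested hairpins were at 0 in all 3 day 7 libraries. A hairpin missing from a whole group was tested only where it reached 0.5 CPM in all 3 libraries of the other, so its values were bound to differ. These 36 had 80 to 519 counts over the 3 day 7 libraries (median 182), and with a floor of 3 counts in each GFP- library they were at least 5.23-fold to at least 33.0-fold lower. Such floors, and the intervals given for low counts, cover counting error only, since reads amplified by PCR were counted here rather than molecules. Hairpin 2244 against Hkdc1 had 0 CPM in each GFP- library, against 27.5, 27.3 and 26.3 CPM at day 7, at least 26.7-fold lower. Hairpins 849 and 847 against Epha5, an ephrin-A receptor, were at 0 in each GFP- library, against 10.4, 34.1 and 42.3 CPM and 14.4, 23.1 and 9.19 CPM at day 7, at least 28.6-fold and at least 15.4-fold lower. Hairpin 1029 against Syk, a kinase of immune receptors, was at 0 in GFP- cells, against 19.1, 20.3 and 27.9 CPM at day 7, at least 22.2-fold lower. A further 22 hairpins that fell had 1 to 3 counts over the GFP- libraries. Of these, hairpin 2926 against Hus1, a subunit of the 9-1-1 DNA damage clamp, had 2 counts in GFP- cells, against 1266 at day 7, a ratio of 378 for day 7 over GFP- (95% exact binomial interval 104 to 3121). Hairpin 2726 against Cdkn1a, which encodes the CDK inhibitor p21, had 1 count in GFP- cells, against 384 at day 7. The hairpins against Hus1 and Cdkn1a were under 0.5 CPM in each GFP- library, so they too were tested only through day 7 and were bound to be lower. Of the 144 hairpins that fell, 65 (45.1%) had no count in any GFP+ library. The same held for 827 (27.7%) of all tested hairpins and 16 (12.9%) of those that rose. Among those that fell, they were 29 (80.6%) of the 36 at 0 in GFP- cells and 18 (81.8%) of the 22 with 1 to 3 counts. Of the 86 with more than 3 counts in GFP- cells they were 18 (20.9%), below the share of all tested hairpins. Over all 144 the median log2 fold change was -1.95, or 3.87-fold, and it is the same with the 36 at their bounds, each of which lies beyond it. The other 86 hairpins that fell kept more than 3 counts in GFP- cells, a set that leaves out the strongest falls, and had a median log2 fold change of -1.39.

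Relative to day 7, hairpins against the pathway that PD0325901 blocks fell more often than they rose. Of 51 tested hairpins against 8 genes of the RAF-MEK-ERK cascade, 6 fell (11.8%, against 4.83% of all hairpins) and 0 rose, and their median log2 fold change was -0.34, against -0.05 over all hairpins. No test of the list was made. Araf, named above, gave 2 of the 6, hairpin 318 and hairpin 322, which had 153, 256 and 206 CPM in GFP- cells, against 469, 448 and 551 CPM at day 7 (log2 fold change -1.25 ± 0.22, adjusted p = 0.00611), while 4 of its 10 hairpins lay above 0. On the scale of 12 libraries, Araf hairpin 318 stood at 329 ± 79.8 CPM at day 0, 855 ± 69.3 CPM at day 7 and 273 ± 38.3 CPM in GFP- cells. For Araf hairpin 322 these levels were 283 ± 155, 436 ± 50.3 and 185 ± 46.9 CPM. The means of both were thus higher at day 7 than at day 0, which was not tested. Hairpin 2537 against Mos, an oocyte kinase that activates MEK, was named after its values were seen and had a log2 fold change of -1.16.

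None of the 11 tested hairpins against MEK itself passed the test. Of the 4 against Map2k1 (MEK1), hairpin 2067 came nearest, with 788, 377 and 581 CPM in GFP- cells, against 1062, 1193 and 1207 CPM at day 7, a log2 fold change of -0.99 ± 0.23 and an adjusted p of 0.0196, just short of the fold required. Hairpins 2066, 2068 and 2070 had log2 fold changes of -1.32 ± 0.56, -0.34 ± 0.41 and 0.06 ± 0.22. Of the 7 against Map2k2 (MEK2), hairpin 2073 had 10.1, 15.9 and 10.5 CPM in GFP- cells, against 43.7, 52.4 and 54.8 CPM at day 7 (log2 fold change -2.04 ± 0.72, adjusted p = 0.0863), and hairpin 2074 had 435, 339 and 342 CPM in GFP- cells, against 227, 299 and 144 CPM at day 7 (log2 fold change 0.73 ± 0.28, adjusted p = 0.107). In both the groups were apart, in opposite directions, without passing the test. The other 5 had log2 fold changes between -0.39 and 0.28, and their groups overlapped.

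All 5 hairpins against Gsk3b, the kinase that CHIR99021 inhibits, lay below 0, as did all hairpins of 65 of the 708 genes with 2 or more tested, and 1 of the 5 passed the test (20.0%, against 4.83% of all hairpins). Their mean, at -1.22 ± 0.35 (SE), did not pass the test of genes described below (limma, adjusted p = 0.0928). Gsk3 restrains β-catenin, and its inhibition supports self-renewal of mESCs. Hairpin 129 had 217, 167 and 139.8 CPM in GFP- cells, against 435, 440.2 and 563 CPM at day 7, a log2 fold change of -1.46 ± 0.22 (adjusted p = 0.00292). Hairpin 127 had 1470.3, 1346 and 1330.1 CPM in GFP- cells, against 2319, 2181 and 2301 CPM at day 7 (log2 fold change -0.71 ± 0.08, adjusted p = 0.00072), and hairpin 128 had 1620.1, 1498 and 1632 CPM in GFP- cells, against 2168, 1922 and 1985 CPM at day 7 (log2 fold change -0.35 ± 0.09, adjusted p = 0.0231). Both were separated between the groups and under the adjusted p required, but short of the fold. Hairpin 125 had 56.3, 106 and 83.2 CPM in GFP- cells, against 153, 146 and 171 CPM at day 7, and hairpin 126 had 0, 37.6 and 14.8 CPM in GFP- cells, against 62.3, 36.3 and 28.1 CPM at day 7, the only one of the 5 whose groups overlapped. No hairpin of Gsk3a was analysed here. In GFP+ cells hairpin 129 was at 0 in each library, while hairpin 128 stood at 1182 ± 119.9 CPM at day 0 and 5462 ± 2809 CPM in GFP+ cells (scale of 12 libraries, not tested).

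Few genes were represented by more than a single changed hairpin. Of 727 genes, 8 had 2 hairpins that rose, 10 had 2 that fell and none had 3 in either direction, while 19 had at least 1 of each. These counts of falls include hairpins at 0 in all GFP- libraries. Within the 708 genes with 2 or more tested hairpins, the SD of the log2 fold changes within a gene was 1.51, against 1.54 over all their hairpins. The clearest gene with 2 higher hairpins was Csnk1g3, a membrane-bound casein kinase 1. All 5 of its hairpins lay above 0, as did those of 57 of the 708 genes: hairpin 1204 had 465, 353 and 478 CPM in GFP- cells, against 167, 177 and 148 CPM at day 7 (log2 fold change 1.40 ± 0.21, adjusted p = 0.00233), and hairpin 1202 had 163, 352 and 233 CPM in GFP- cells, against 100.1, 98.9 and 117 CPM at day 7 (log2 fold change 1.25 ± 0.32, adjusted p = 0.0287). Ntrk3 hairpin 976 rose beside hairpin 975 (log2 fold change 1.09), but its other 2 hairpins lay below 0. Ripk2, an adaptor kinase of NOD receptors, had 2 higher hairpins, 226 (1.44) and 228 (1.04), with 3 below 0. Stk33 (hairpins 1405 and 1407), Tesk1, a kinase of cofilin (298 and 299), Ak3, a mitochondrial adenylate kinase (1771 and 1773), Cdk17, listed as PCTK2 (720 and 721), and Pik3c2g, a class II phosphatidylinositol 3-kinase (1719 and 1720), made up the rest, with log2 fold changes from 1.05 to 2.44. Cdk17 also had a hairpin that fell.

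Among the genes with 2 hairpins that fell was Pim3, a serine/threonine kinase and a target of LIF-STAT3 signalling in mESCs. All 5 of its hairpins lay below 0, but their mean did not pass the test of genes (-0.94 ± 0.18, SE; limma, adjusted p = 0.0501). Hairpin 1398 had 294, 299.6 and 388 CPM in GFP- cells, against 843, 895 and 634 CPM at day 7 (log2 fold change -1.27 ± 0.18, adjusted p = 0.0021), and hairpin 1401 had 371, 717 and 329 CPM in GFP- cells, against 1115, 1219 and 1282 CPM at day 7 (log2 fold change -1.35 ± 0.26, adjusted p = 0.00956). GFP- replicate B stood apart for hairpin 1401 but remained below day 7. Trib2 hairpin 1464 fell beside hairpin 1463, with 179.8, 222 and 139 CPM in GFP- cells, against 397, 374 and 325 CPM at day 7 (log2 fold change -1.02), while the median of its 5 hairpins was -0.19. Ikbke, a kinase related to the IκB kinases, had hairpin 2497 at 24.97, 61.8 and 33.6 CPM in GFP- cells, against 257, 173 and 277 CPM at day 7 (log2 fold change -2.55), and its hairpin 2428 was at 0 in GFP- cells, at least 11.97-fold lower. Cdc42bpg, an effector kinase of CDC42, had hairpin 593 at 142, 143 and 157 CPM in GFP- cells, against 291, 387 and 399 CPM at day 7 (log2 fold change -1.29), with hairpin 592 at 2 counts in GFP- cells, against 231 at day 7. Araf, Hkdc1 and Epha5, described above, also had 2 hairpins that fell. Both of those against Epha5, Hkdc1 hairpin 2244 and Ikbke hairpin 2428 were at 0 in all GFP- libraries. Such hairpins were bound to differ, as stated above, so they give no agreement between hairpins of a gene.

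Averaged over a gene's hairpins, 2 of 708 genes rose (0.282%) and 24 fell (3.39%; limma on the mean log2 CPM, adjusted p under 0.05), with 44 higher and 145 lower at an unadjusted p under 0.05. These calls were unstable: 0 genes were called without day 7 replicate B or without replicate C, and 0 higher and 9 lower without replicate A. The lean towards lower genes also depended on how hairpins were combined, since the median over hairpins gave 8 higher and 10 lower genes and summed counts, tested with edgeR, gave 116 and 105. Csnk1g3 rose by 0.80 ± 0.13 on the log2 scale (SE; adjusted p = 0.0312). Next in order, and not past the threshold, were Etnk2, an ethanolamine kinase, at 1.32 ± 0.25 and Lamtor3, a scaffold of MEK1 and ERK1 on late endosomes, at 0.72 ± 0.14 (adjusted p = 0.0501 for either).

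Among the 5 genes with the smallest p of those that fell were Coq8b, Ern1, Hkdc1 and Hus1, each with an adjusted p of 0.00746. Coq8b, an atypical kinase needed for coenzyme Q synthesis, changed by -2.35 ± 0.21 over 5 hairpins, all below 0. Ern1, which encodes IRE1α, a sensor of unfolded proteins, changed by -4.90 ± 0.44 over 2 tested hairpins of the 3 listed. Both were at 0 in GFP- cells and were tested only because the day 7 libraries reached 0.5 CPM. The mean of Ern1 was therefore bound to fall, its SE holds no spread within GFP- cells, and no conclusion is drawn from its adjusted p. Hkdc1 changed by -1.61 ± 0.15 over 5 hairpins and Hus1 by -1.89 ± 0.18 over 4. Hairpins near 0 counts enter these means at a level set by the prior count, and the medians of the log2 fold changes of single hairpins were closer to 0 for Coq8b (-1.43), Hkdc1 (-0.73) and Hus1 (-0.41, with 1 of 4 hairpins called). For Ern1 that median was -9.44, farther from 0 than the mean, and both values are set by the prior count because its GFP- counts were all 0.

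Kinases and cyclins that dividing cells need had changes in both directions. Of 79 tested hairpins against 18 such genes, 5 rose (6.33%, against 4.16% of all hairpins) and 6 fell (7.59%, against 4.83%), with a median log2 fold change of -0.14. Bub1b and Bub1, of the spindle assembly checkpoint, each had a hairpin that rose: Bub1b hairpin 194 had 698, 548 and 554 CPM in GFP- cells, against 75.2, 145 and 143 CPM at day 7 (log2 fold change 2.31 ± 0.27), and Bub1 hairpin 191 had 421, 455 and 615 CPM in GFP- cells, against 192, 218 and 187 CPM at day 7 (log2 fold change 1.32). All 5 hairpins against Bub1b lay above 0, but their mean did not pass the test of genes (1.35 ± 0.27, adjusted p = 0.0501). Ccnh fell, as did hairpin 615 against Cdk12, a kinase of the transcribing RNA polymerase listed as CRKRS, with 133, 102 and 139.8 CPM in GFP- cells, against 355, 417 and 381 CPM at day 7 (log2 fold change -1.62). Of 52 hairpins against CDK inhibitors and damage checkpoint genes, 0 rose and 4 fell (7.69%, against 4.83% of all hairpins), those of Hus1, Cdkn1a, Prkdc and Hipk2. Prkdc, the DNA-dependent protein kinase, had hairpin 1279 at 12.96, 2.14 and 13.7 CPM in GFP- cells, against 85.2, 86.7 and 136 CPM at day 7 (log2 fold change -3.42), and hairpin 602 against Hipk2 was at 0 in GFP- cells, at least 11.4-fold lower. The median of that list was 0.05.

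Among metabolic genes, none of 70 hairpins against glycolysis and hexose kinases rose and 6 fell (8.57%, against 4.83% of all hairpins), with a list median of -0.25. Of the 6, 2 were at 0 in all GFP- libraries and were bound to differ. Beside the pair against Hkdc1 were hairpin 94 against Pfkl, the liver phosphofructokinase, at 122, 237 and 121 CPM in GFP- cells, against 502, 458 and 467 CPM at day 7 (log2 fold change -1.57), and hairpin 2288 against Khk, fructokinase, at 152, 34.9 and 178 CPM in GFP- cells, against 553, 534 and 553 CPM at day 7 (log2 fold change -2.17). GFP- replicate B was the lowest of its group for Khk and the highest for Pfkl. Of 105 hairpins of nucleotide synthesis and salvage, 6 rose (5.71%) and 5 fell (4.76%), near the shares over all hairpins (4.16% and 4.83%), with a median of -0.07. Ak3 and Uckl1 were among the leading ones, and Uckl1, a uridine-cytidine kinase, had hairpin 1836 higher (979, 963 and 863 CPM in GFP- cells, against 376, 444 and 493 CPM at day 7) and hairpin 1837 lower (119.8, 114 and 107 CPM in GFP- cells, against 259.8, 371 and 280.2 CPM at day 7). Of 19 hairpins against the mitochondrial dehydrogenase kinases, 1 rose (5.26%, against 4.16% of all hairpins) and 2 fell (10.5%, against 4.83%). Pdk2 likewise had 1 higher (hairpin 1261, log2 fold change 1.12) and 1 lower (hairpin 1262, -1.09), and hairpin 3020 against Pdk1 fell (-1.23). Uckl1 and Pdk2 thus each had hairpins past the thresholds in opposite directions.

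For PI3K, AKT, mTOR and S6 kinases, 6 of 80 hairpins rose (7.50%, against 4.16% of all hairpins) and 2 fell (2.50%, against 4.83%), with a median of -0.16. Pik3c2a, a class II phosphatidylinositol 3-kinase of endocytosis, had the strongest, hairpin 1852, with 196, 107 and 244 CPM in GFP- cells, against 26.6, 17.1 and 22.2 CPM at day 7 (log2 fold change 3.05 ± 0.43, adjusted p = 0.00204). Pik3c3, the class III kinase of autophagy, had hairpin 2189 at 358, 493 and 367 CPM in GFP- cells, against 127, 212 and 210.4 CPM at day 7 (log2 fold change 1.15), and hairpin 535 against Sgk2 rose as well (1.07). Pik3ca, the class I catalytic subunit, had hairpin 2348 at 2 counts in GFP- cells, against 659 at day 7. In the test of genes none of this list rose. There Mtor (-1.52 ± 0.26, SE, limma, adjusted p = 0.0400) fell, with all 5 hairpins below 0 and a median over single hairpins of -0.52. The 1 hairpin of Mtor past the thresholds was at 0 in all GFP- libraries and bound to differ. The mean of Mtor is thus in part set by the prior count. Pik3ca (-3.42 ± 0.53, adjusted p = 0.0291) fell over 2 tested hairpins, in part at a level set by the prior count. Of 67 hairpins against LKB1, AMPK and related kinases, 3 rose (4.48%, against 4.16% of all hairpins) and 2 fell (2.99%, against 4.83%), with a median of -0.21. Hairpin 1410 against Stk11, which encodes LKB1, had 267, 395 and 509 CPM in GFP- cells, against 953, 942 and 953 CPM at day 7 (log2 fold change -1.28 ± 0.21, adjusted p = 0.00417). Brsk2 hairpin 3075 (1.22) and Mark4 hairpin 1517 (1.10) rose, while Mark3 hairpin 1390 had 2 counts in GFP- cells, against 241 at day 7.

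Of 13 tested hairpins against the 3 subunits of casein kinase 2, 2 rose (15.4%, against 4.16% of all hairpins) and 0 fell. They were hairpin 1932 against Csnk2b and hairpin 2367 against Csnk2a2, a catalytic subunit, with 359, 416 and 445 CPM in GFP- cells, against 163, 185 and 156 CPM at day 7 (log2 fold change 1.28 ± 0.20, adjusted p = 0.00294). The median of the list was -0.15, and 6 of the 13 lay above 0. Of 33 against casein kinase 1 and tau tubulin kinases, 3 rose and 0 fell (9.09%, against 4.16% of all hairpins), with a median of 0.17, namely the pair of Csnk1g3 and hairpin 1240 against Csnk1g1 (1.03). Of 39 hairpins against protein kinase A subunits and inhibitors, the one against Prkar1b was the sole hairpin past the thresholds (2.56% lower, against 4.83% of all hairpins), and 26 of the 39 lay above 0 (median 0.16).

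Hairpins against receptors changed in no single direction. Of 24 against FGF receptors and LIF-JAK kinases, hairpin 1024 against Fgfr4 rose, with 328, 338 and 386 CPM in GFP- cells, against 156, 133 and 199.8 CPM at day 7 (log2 fold change 1.10), and hairpin 815 against Jak1, which acts below the LIF receptor, was at 0 in GFP- cells, at least 5.26-fold lower. These were 4.17% in either direction, against 4.16% and 4.83% of all hairpins, and the list's median was 0.33. Of 62 against Eph receptors, 2 rose (3.23%, against 4.16% of all hairpins) and 4 fell (6.45%, against 4.83%), with a median of -0.06. Beside those against Epha5 were hairpin 1124 against Epha7, at 73.3, 89.96 and 75.8 CPM in GFP- cells, against 242, 502 and 314 CPM at day 7 (log2 fold change -2.14), and hairpin 1019 against Epha4, with 1 count in GFP- cells, against 515 at day 7. Of 51 against TGF-β, activin and BMP receptors, 3 rose (5.88%, against 4.16% of all hairpins) and 0 fell, with a median equal to that of all hairpins (-0.05). Amhr2, the receptor of anti-Müllerian hormone, had hairpin 323 at 80.6, 146 and 57.4 CPM in GFP- cells, against 2.00, 5.38 and 0 CPM at day 7. Acvrl1 had hairpin 276 at 75.9, 117 and 41.8 CPM in GFP- cells, against 2.22, 12.2 and 6.49 CPM at day 7, and Acvr2a, an activin receptor, hairpin 361 at 150.4, 169 and 89.5 CPM in GFP- cells, against 54.8, 48.04 and 54.1 CPM at day 7. The first and second of these were low at day 7, with 36 and 107 counts over the 3 libraries, and the first was at 0 in 1 of them. Of the 5 hairpins against each gene, 3 for Amhr2 and 4 for Acvrl1 lay below 0, while all 5 for Acvr2a lay above. In the test of genes no receptor of this list rose. There Acvr1b (-1.73 ± 0.25, SE, limma, adjusted p = 0.0238) and Bmpr1a (-1.36 ± 0.24, adjusted p = 0.0425) fell. All 4 tested hairpins of each lay below 0, but none of them passed the test alone. The medians over single hairpins were -0.75 for Acvr1b and -0.93 for Bmpr1a.

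Of the remaining lists, 29 hairpins against Hippo and NDR kinases and related genes gave 2 that rose (6.90%, against 4.16% of all hairpins, median 0.05). The first was hairpin 524 against Stk38, an NDR kinase, with 302, 167 and 298 CPM in GFP- cells, against 95.2, 40.7 and 65.6 CPM at day 7. The second was hairpin 3317 against Mob3c, a MOB protein and not a kinase, listed as MOBKL2C. It had 161, 130.0 and 114 CPM in GFP- cells, against 30.8, 39.3 and 28.8 CPM at day 7. Of 37 against the SRC family and CSK, 2 fell (5.41%, against 4.83% of all hairpins; median 0.15), namely against Csk, which phosphorylates and restrains SRC kinases (hairpin 1174, 157, 134 and 277 CPM in GFP- cells, against 520.0, 515 and 485 CPM at day 7), and Frk (hairpin 841, 137, 149.6 and 102 CPM in GFP- cells, against 346, 275 and 239.8 CPM at day 7). Of 25 against kinases of lymphoid signalling, 2 rose and 2 fell, 8% in either direction, against 4.16% and 4.83% of all hairpins (median -0.21). Txk hairpin 1062 rose, with 510.1, 509 and 506 CPM in GFP- cells, against 115, 177 and 185 CPM at day 7, and Tec hairpin 1120 fell, with 125, 350.1 and 273 CPM in GFP- cells, against 929, 1171 and 1467 CPM at day 7 (log2 fold change -2.25). Bmx hairpin 925 also rose (1.61), and that against Syk was among those at 0.

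The 4 genes whose sequences are known gave 19 tested hairpins, of which 2 rose, against 4.16% of all hairpins, and none fell. Beside Csnk2b hairpin 1932 this was Sephs2 hairpin 2952, with 66.7, 190.3 and 169 CPM in GFP- cells, against 49.7, 42.7 and 53.5 CPM at day 7 (log2 fold change 1.54 ± 0.45, adjusted p = 0.0464). Its GFP- replicate A was far below replicates B and C, and it was called in 10 of the 20 alternative analyses. The other 3 tested hairpins against Csnk2b had log2 fold changes of 0.32 ± 0.94, -0.15 ± 0.63 and -0.90 ± 1.53, and the groups overlapped in each. The other 4 against Sephs2 lay between -0.07 and 0.53. Nags makes N-acetylglutamate, the activator of the urea cycle, and its hairpins 2965 to 2969 had log2 fold changes from -0.94 to 1.09. Prpsap2 is a partner of the phosphoribosyl pyrophosphate synthetases, and its hairpins 2945 to 2949 had log2 fold changes from -1.45 to 2.31. None of these 10 passed the test.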

How the data were processed

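The authors amplified the integrated hairpins from genomic DNA by PCR, sequenced them, aligned the reads with Bowtie2 and deposited the result as raw counts per hairpin, with no normalization. For this alignment of hairpins, neither the version of Bowtie2 nor the reference is given in the sources used here. Symbols of 2941 hairpins matched the GRCm38.p6 gene table of RefSeq, 283 matched a synonym and 19 matched none. The 3 GFP- and 3 day 7 libraries alone entered the fit, made in R 4.3.3 with edgeR 4.0.16 (TMM scaling, glmQLFit and glmQLFTest) over hairpins with 0.5 CPM in 3 libraries; the sign of a fold change is that of GFP- over day 7. Genes with 2 or more tested hairpins were tested with limma 3.58.1 on mean log2 CPM (prior count 2). The scripts were tested on simulated data. Hairpin sequences come from the study's supplement.

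Named hairpins are, in each direction, the 12 with the smallest p whose libraries do not overlap, the called ones of up to 8 genes with 2 or more, up to 4 per list, and all those of Nags, Sephs2, Csnk2b, Prpsap2 and the 2i targets; 5 genes per direction are named from the gene test. Some that the rule names are not reported here. These rules, the hairpins and the 18 gene lists were chosen with earlier results of these data known. Alternatives were 4 other scalings, 3 other filters, exactTest, robust quasi-likelihood, DESeq2 1.42.0, fitting the 12 libraries together, a replicate block, a limit of 0.01 on the adjusted p, dropping the limit on the fold, and leaving out each replicate; detection and gene means had alternatives of their own.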

Additional observations from a re-analysis of the deposited data

How the results depend on the processing

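With 124 hairpins higher and 144 lower in the main analysis, the other scalings gave 110 to 127 higher and 138 to 166 lower, the other filters 126 to 132 and 111 to 133, exactTest 147 and 200, and robust quasi-likelihood 125 and 125. DESeq2 gave 176 higher and 239 lower, a limit of 0.01 on the adjusted p gave 70 and 47, dropping the limit on the fold gave 264 and 251, and all 12 libraries in 1 fit gave 13 and 6. Leaving out 1 library gave 80 to 143 higher and 54 to 249 lower. Without GFP- replicate B they were 143 and 249, and without day 7 replicate A, B or C they were 80 and 56, 88 and 54, and 81 and 57. The replicate block gave 109 higher and 105 lower hairpins, but the letters do not pair the samples, since same-letter deviations correlated at -0.01 to 0.01.

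For genes, where 26 were called (2 higher and 24 lower), a prior count of 0.5 gave 47 (5 and 42), a prior count of 5 gave 6 higher and 24 lower, the median over hairpins 8 and 10, 4 or more tested hairpins 4 and 33, summed counts by edgeR 221 (116 and 105) and the replicate block 0. Leaving out 1 library gave 0 to 66 genes, 0 to 8 higher and 0 to 58 lower; 66 (8 and 58) were called without GFP- replicate B, 29 (1 and 28) without GFP- replicate C, 9 (0 and 9) without day 7 replicate A, and 0 without day 7 replicate B or C. The cause of these changes was not tested. The differences in detected hairpins and in the share of the 100 most abundant kept their direction under each alternative tried, those without a replicate having been added after seeing the data.

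No value of a called hairpin that is named changed sign. Of 93 such hairpins, 93 were called with DESeq2, 88 under each of 4 other scalings, 79 with the replicate block, 58 at an adjusted p under 0.01, 50 in all 6 fits without a replicate and 15 in the fit of 12 libraries. Among named hairpins that did not pass the test, leaving out 1 replicate turned the sign of the log2 fold change of Csnk2b hairpin 1934 (-1.41 to 0.64), Csnk2b hairpin 1931 (-0.0696 to 0.74), Map2k1 hairpin 2070 (-0.0595 to 0.17), Sephs2 hairpin 2950 (-0.35 to 0.11), Csnk2b hairpin 1933 (-0.50 to 0.17), Map2k2 hairpin 2814 (-1.70 to 0.45) and Map2k2 hairpin 2071 (-0.36 to 0.30).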

Other observations

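Of the 10 hairpins that rose in GFP- cells under each of 20 alternative analyses, 4 fall outside the rule for named hairpins and were chosen after their values were seen. Pdgfrb encodes a receptor of platelet-derived growth factors, and its hairpin 3015 had 1785, 1582 and 2152 CPM in GFP- cells, against 762, 651 and 649 CPM at day 7 (log2 fold change 1.42 ± 0.13, adjusted p = 0.000258). Lamtor3 encodes a subunit of the Ragulator complex, which also holds MEK1 and ERK1 at late endosomes, and its hairpin 3390 had 846, 817 and 739 CPM in GFP- cells, against 206, 289 and 212 CPM at day 7 (log2 fold change 1.77 ± 0.18, adjusted p = 0.000337). Ikbkg encodes NEMO, the regulatory subunit of the IκB kinase complex, and its hairpin 3367 had 710.2, 713 and 934 CPM in GFP- cells, against 237, 239 and 308 CPM at day 7 (log2 fold change 1.59 ± 0.18, adjusted p = 0.000684). Peak1 encodes a pseudokinase of the cytoskeleton, and its hairpin 3226 had 1482, 1291 and 1159 CPM in GFP- cells, against 514, 631 and 622 CPM at day 7 (log2 fold change 1.15 ± 0.13, adjusted p = 0.00072). In each of the 4 the lowest GFP- value lay above the highest day 7 value. On the scale of all 12 libraries, Lamtor3 hairpin 3390 stood at 285 ± 95.8 CPM at day 0 and 366 ± 67.3 CPM in GFP+ cells and Ikbkg hairpin 3367 at 499 ± 129.7 CPM at day 0 and 261 ± 39.4 CPM in GFP+ cells.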
